A study of Homo sapiens with 16 samples.

Results

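The 7 transcripts described here encode the inhibitors of the cyclin-dependent kinases (CDKs): CDKN1A, CDKN1B and CDKN1C of the CIP/KIP family and CDKN2A, CDKN2B, CDKN2C and CDKN2D of the INK4 family. They were picked by name, through their Ensembl identifiers, and all 7 are among the 26410 genes of the deposited tables. RNA was sequenced from SH-SY5Y, a human neuroblastoma cell line, in 16 libraries. Of the 4 clones sequenced, KO11 and KO28 carry the label TRPM2 KO and were made with Cas9 and a guide against the TRPM2 calcium channel, and Scr13 and Scr16 are controls made with a scrambled guide. All 4 clones also received a donor vector with GFP and puromycin markers and were grown from single cells under puromycin. Each clone was sequenced in 2 replicates without treatment and in 2 replicates after 24 h with doxorubicin, a chemotherapy drug that damages DNA, so each of the 4 groups holds 4 libraries. The sample labels give 0.3 µM doxorubicin, and the series' design text gives 3 µM. The deposited column labels give the untreated libraries an earlier time than the 24 h of the treated ones. The study's text describes 24 h of culture for both. Whether time in culture differed between them was not tested. Gene-assigned reads ranged from 10481177 to 25086085 per library, and 3 reads, taken as the floor of detection for counting error only, were worth between 0.118 and 0.285 normalized CPM (CPM being a read count scaled to library size, here by the authors). Since a genotype here is 2 clones, a difference between the genotypes and a difference between particular clones cannot be told apart.

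Without treatment, TRPM2 had between 1.41 and 2.23 normalized CPM in the libraries labelled TRPM2 KO and between 0 and 0.118 in the Scr libraries, all of which were at or under the floor. After doxorubicin it had between 0.658 and 1.83 normalized CPM in the libraries labelled TRPM2 KO and between 0.0594 and 1.33 in the Scr libraries, and the groups overlapped. The study's methods describe the edit as a loss of the start of the coding sequence that shifts the reading frame behind it. Reads counted over the whole gene do not test for such an edit and so check nothing about the label, and the genotype is given throughout as the label. The noradrenergic markers of this cell line were abundant, with DBH, the enzyme that makes noradrenaline, between 1204 and 2140 normalized CPM in the 16 libraries, while TH, the first enzyme of the same route, was between 0 and 1.13. The summed level of the 9 noradrenergic markers was between 5882 and 7168, and of 8 tested between the genotypes, 2 were higher and 1 lower without treatment and 1 higher and 1 lower after it. The untreated 3 became 1 without the clone Scr13, and the treated 2 became 1 without a filter, treated KO11 replicate 1 or the clone KO11 or Scr13.

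CDK inhibitors bind CDKs or their cyclin complexes and hold cells before DNA replication. The CIP/KIP proteins p21, p27 and p57 act on the CDK2 complexes and also bind those of CDK4 and CDK6, whereas the INK4 proteins p16, p15, p18 and p19 bind CDK4 and CDK6 alone and keep D-type cyclins away from them. CDKN1A is well known as a gene that DNA damage switches on, and CDKN1B protein is set largely by its degradation. CDKN2A encodes both p16 and, from another reading frame, ARF, which binds MDM2.

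Of the 7 transcripts, 4 held nearly all of the summed level of the family as counted in these tables. On the scale of normalized CPM per kilobase of exon, which allows levels to be compared between genes, the order in untreated Scr libraries was CDKN1B at 39.0, CDKN2C at 31.7, CDKN1A at 18.7 and CDKN2D at 9.98 (means, n = 4 libraries). CDKN2A and CDKN2B were at 0.421 and 0.0417, and CDKN1C was listed at 0.257 but is left out of the order, since these tables may understate it. In untreated libraries labelled TRPM2 KO, CDKN1A at 44.7 stood above CDKN1B at 29.7 and CDKN2C at 26.5, and the libraries of the latter pair overlapped on this scale. After doxorubicin CDKN1A reached 111 in the Scr libraries and 241 in those labelled TRPM2 KO, against 47.1 and 42.3 for CDKN1B. With the length of the longest transcript in place of all exons, the 4 abundant genes kept their order in each group, and CDKN2A moved from 0.421 to 1.42 in untreated Scr libraries. CDKN1A thus supplied between 15.4% and 22.1% of the summed level per kilobase in the 4 untreated Scr libraries, and between 36.6% and 44.2% in untreated KO11 and KO28. With the drug its share was between 52.7% and 56.99% in the Scr libraries and between 74.3% and 77.3% in those labelled TRPM2 KO, so that no library of 1 group overlapped with another group.

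**Figure D1:**
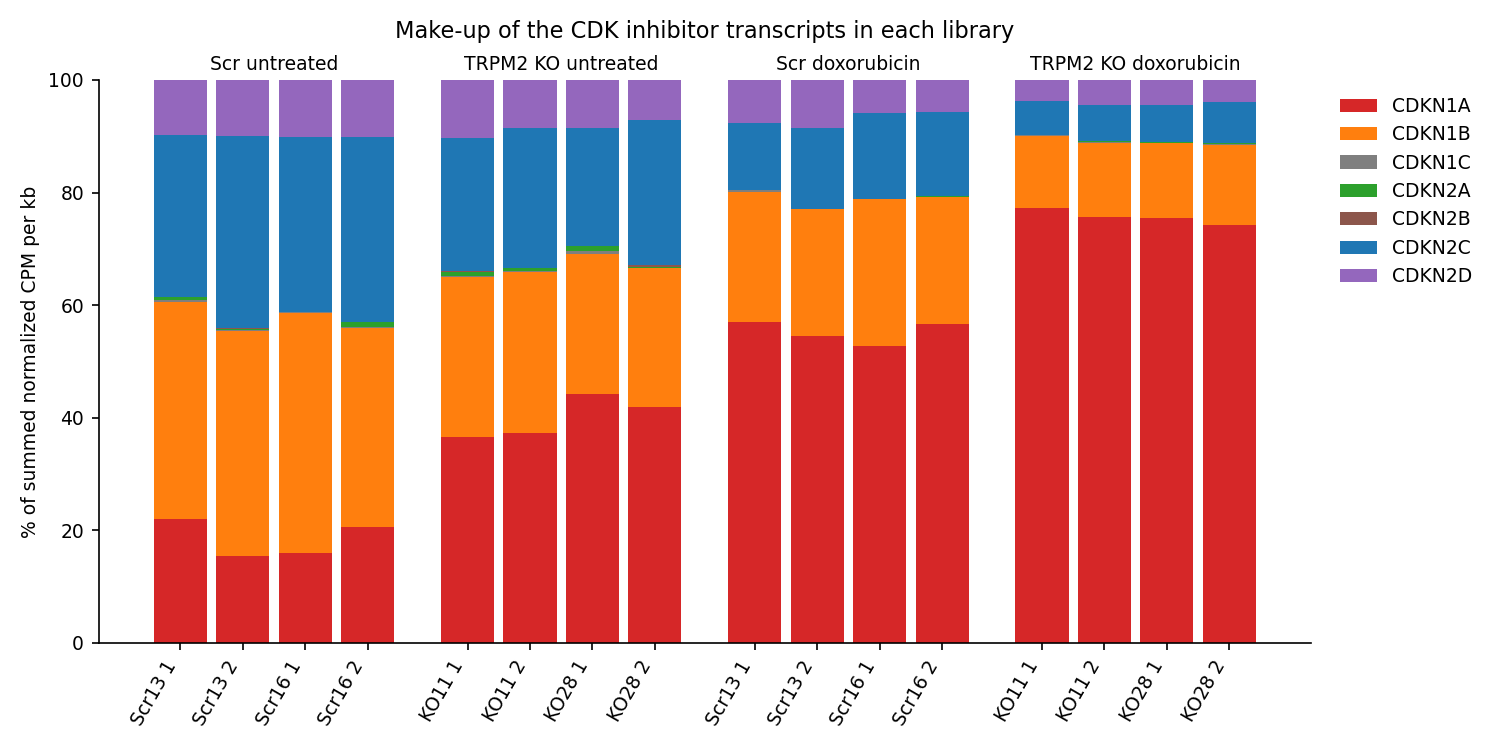
Stacked bars give, for each of the 16 libraries, the percentage of the summed normalized CPM per kilobase that each of the 7 CDK inhibitor transcripts supplies (labels give clone and replicate). The CDKN1A share is between 15.4% and 22.1% in untreated Scr libraries and between 74.3% and 77.3% in treated KO11 and KO28.

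CDKN1A (ENSG00000124762; GRCh38 chromosome 6, 36676460 to 36687339, plus strand) encodes p21. CDKN1A had the largest changes of the tested members on the scale of log2(normalized CPM + 1), both between the genotypes and with doxorubicin. Between the treated genotypes, the ratio of mean normalized CPM was 3.84 for the scarce CDKN2A and 21.1 for CDKN2B, against 2.18 for CDKN1A. The CDKN1A promoter is shown here because of the log2 changes. Of the 250 bases before its RefSeq start, those shown are the 194 that no annotated transcript has as untranslated region. They are chr6:36678464-36678657, plus strand, GRCh38.p14, from RefSeq, with GC boxes in capitals.
CDKN1A: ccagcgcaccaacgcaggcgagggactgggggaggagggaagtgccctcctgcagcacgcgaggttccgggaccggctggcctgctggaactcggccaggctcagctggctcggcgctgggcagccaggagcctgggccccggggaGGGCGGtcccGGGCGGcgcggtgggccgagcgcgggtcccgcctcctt
The full 250 bases, which are 76.4% G or C, hold 4 GC boxes (GGGCGG on either strand, a letter string that Sp1 binds), the last pair of which overlap by 1 base. GC boxes are present in 42.6% of the 35114 RefSeq promoter windows of that length.

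Without treatment, the replicates of Scr13 had 75.1 and 46.9 normalized CPM of CDKN1A, and Scr16 had 42.3 and 63.8. In the libraries labelled TRPM2 KO the level was 124 and 123 (KO11) and 158 and 141 (KO28). Every library labelled TRPM2 KO was above every Scr library. The means were 136 ± 16.5 and 57.04 ± 15.2 normalized CPM (SD, n = 4 libraries each), a difference of 1.27 ± 0.14 (SE) on the scale of log2(normalized CPM + 1), or 2.42-fold (adjusted p = 3.36e-06, limma with Benjamini-Hochberg adjustment over all tested genes). The two-sided exact permutation test gave p = 0.0286, the smallest that 4 against 4 libraries allow. In such libraries from whole cultures, a change in the number of cells that express a gene and a change in RNA per cell cannot be told apart. Fold changes below are on the same log2 scale, and adjusted p-values are from the same test.

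After doxorubicin, CDKN1A stood at 340.3 and 365 normalized CPM in Scr13 and at 304 and 340.3 in Scr16. In KO11 it stood at 788 and 739, and in KO28 at 677 and 742. Here too the genotypes did not overlap, and the difference was 1.13 ± 0.076 (SE) in log2, or 2.18-fold (limma, adjusted p = 1.98e-09). Only 4 of the 14572 genes tested had a smaller adjusted p in that comparison.

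Doxorubicin raised CDKN1A 5.97-fold in the Scr libraries (2.58 ± 0.13 in log2, SE, limma, adjusted p = 6.14e-10) and 5.39-fold in those labelled TRPM2 KO (2.43 ± 0.082, limma, adjusted p = 2.42e-16). No gene had a smaller adjusted p in either comparison, and GDF15, a secreted stress cytokine, had the same adjusted p as CDKN1A in both. Within each clone both treated libraries were above both untreated ones. The ratio of the means was 5.78 in Scr13, 6.07 in Scr16, 6.18 in KO11 and 4.75 in KO28. On the log2 scale the rise differed between the genotypes by -0.15 ± 0.16 (SE, 95% interval -0.48 to 0.19, adjusted p = 0.896, limma interaction). The level was thus higher in the libraries labelled TRPM2 KO both before and after the drug, while a difference in the rise itself was not detected.

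**Figure D2:**
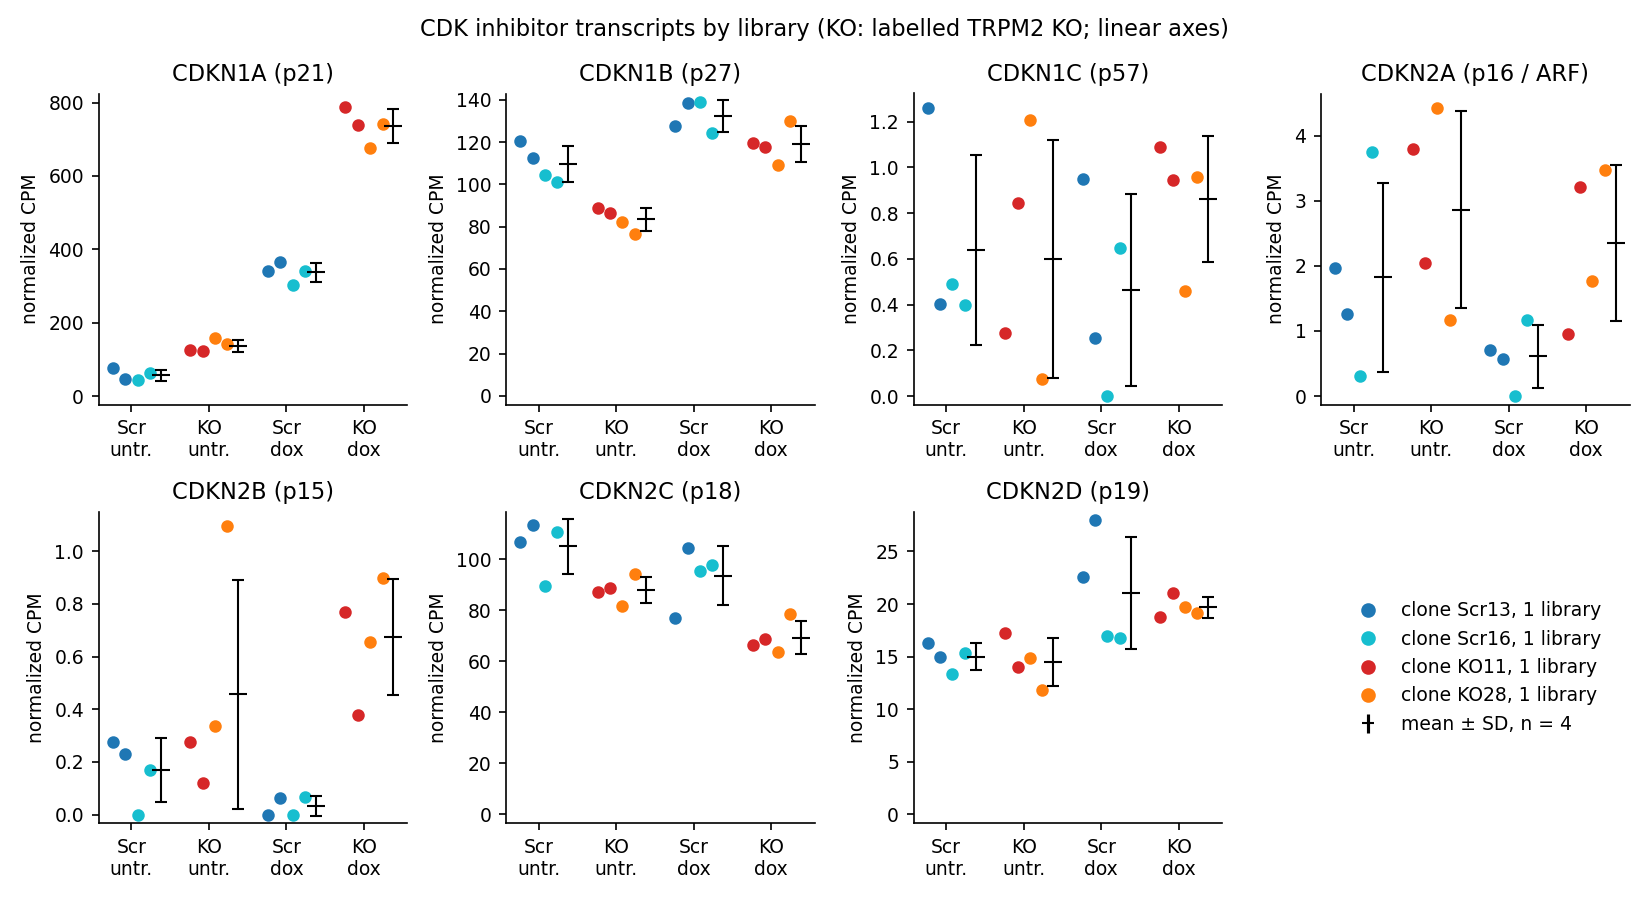
Normalized CPM (linear axes) of each CDK inhibitor transcript in the 4 groups; each point is 1 library, coloured by clone, and bars give the mean ± SD of 4 libraries. For CDKN1A the 4 treated libraries of KO11 and KO28 sit between 677 and 788, above the Scr libraries at 304 to 365, and both lie above the untreated libraries at 42.3 to 158.

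The shares of all tested genes that passed the test set the scale for the other members and for the gene lists below. The comparisons share libraries with each other and are therefore only set side by side. Without treatment 4.84% of 14364 genes passed between the genotypes, 2.3% higher and 2.54% lower in the libraries labelled TRPM2 KO, and for 9.29% the groups did not overlap. After doxorubicin 8.69% of 14572 genes passed, 4.52% higher and 4.17% lower, and 13.2% did not overlap. Doxorubicin changed 11.6% of 14378 genes in the Scr libraries, with 6.67% higher and 4.94% lower and no overlap for 17.1%. In the libraries labelled TRPM2 KO it changed 17.5% of 14513 genes, with 10.1% higher and 7.38% lower and no overlap for 19.8%. The difference in response passed the test for 0.0196% of 15325 genes, 0.0131% higher and 0.00653% lower. Of the 7 inhibitors, 5 passed the filter of 1 normalized CPM in 4 libraries of every comparison, and CDKN1C and CDKN2B passed it in none. Between the genotypes, 2 of the 5 tested inhibitors passed without treatment (CDKN1A higher, CDKN1B lower) and 2 after doxorubicin (CDKN1A higher, CDKN2C lower). With doxorubicin, 2 rose in the Scr libraries (CDKN1A and CDKN1B), and in those labelled TRPM2 KO 3 rose (CDKN1A, CDKN1B and CDKN2D) and CDKN2C fell. None of the 5 passed the test of the difference in response, in which limma gave 1 unadjusted p under 0.05 among them (CDKN1B) and in which no alternative put any of them past the threshold.

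**Figure D3:**
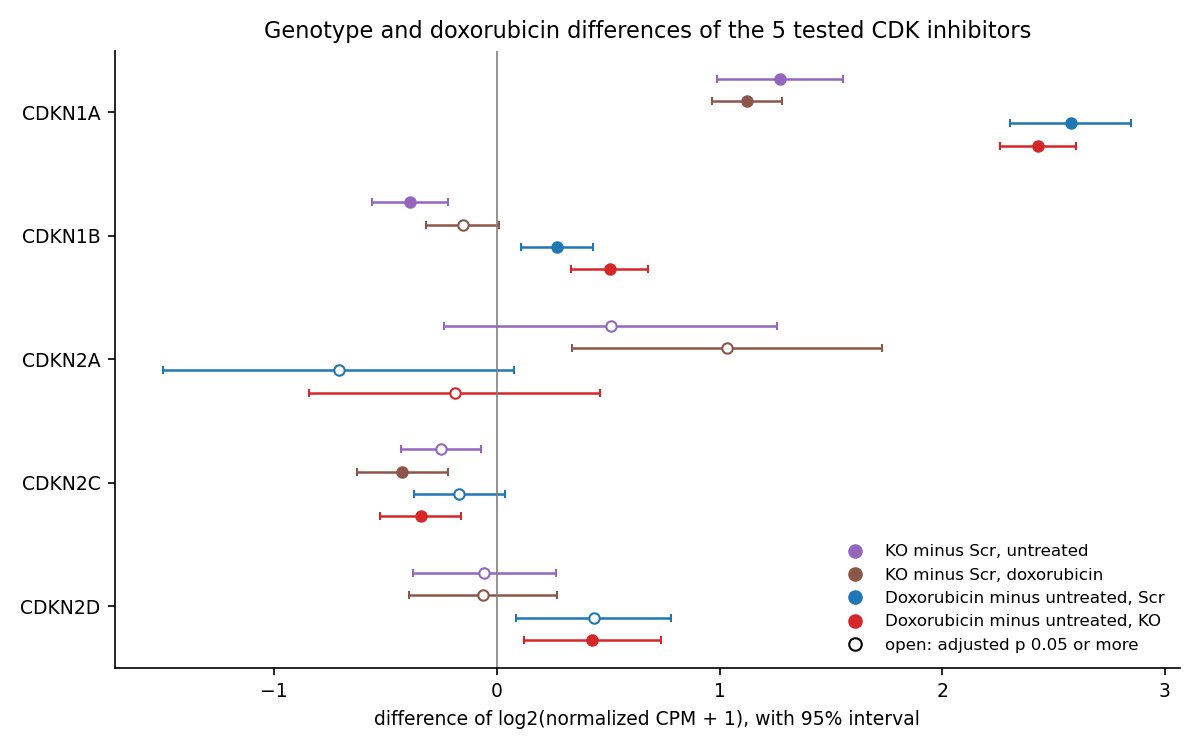
Differences of log2(normalized CPM + 1) with 95% intervals (x axis) for the 5 tested CDK inhibitors (y axis) in 4 comparisons, where KO stands for the libraries labelled TRPM2 KO and open points have an adjusted p of 0.05 or more. CDKN1A lies between 1.13 and 2.58 in every comparison, and the other points lie between -0.71 and 1.03.

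CDKN1B (ENSG00000111276; chromosome 12, 12715058 to 12722371, plus strand) encodes p27. Its promoter window held a pair of CCAAT boxes (the letters CCAAT on either strand, a string bound by NF-Y), found in 32.0% of all windows, and each is given in capitals with 11 bases on both sides (GRCh38.p14, plus strand, RefSeq). Of the 250 bases 244, both boxes among them, are untranslated region of some annotated transcript.
CDKN1B, chr12:12717183-12717209: cacgcgaccagCCAATctcccggcggc
CDKN1B, chr12:12717307-12717333: cgccgccgcaaCCAATggatctcctcc
No match to FOXO (TGTTTAC), which lies in 2.98% of windows, was found there, which says only that these letters are not in the 250 bases.

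Untreated CDKN1B was at 121 and 112 normalized CPM in Scr13 and at 104 and 101 in Scr16, while KO11 had 88.8 and 86.5 and KO28 had 82.1 and 76.3. It was lower in every library labelled TRPM2 KO, by 0.39 ± 0.082 in log2 (1.31-fold, limma, adjusted p = 0.00515). The call was lost with reads summed per clone (adjusted p = 0.0540, edgeR) and without the clone Scr13 (adjusted p = 0.247, limma). After doxorubicin the values were 128 and 138 in Scr13, 139 and 124 in Scr16, 119 and 117 in KO11 and 109 and 130.1 in KO28. The groups then overlapped, and the difference of -0.15 ± 0.078 in log2 did not pass (95% interval -0.32 to 0.010, limma, adjusted p = 0.285).

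With doxorubicin CDKN1B rose 1.42-fold in the libraries labelled TRPM2 KO (0.51 ± 0.083 in log2, limma, adjusted p = 1.09e-04) and 1.21-fold in the Scr libraries (0.27 ± 0.076, limma, adjusted p = 0.0277), without overlap in either. The ratio of the means was 1.14 in Scr13, 1.28 in Scr16, 1.35 in KO11 and 1.51 in KO28. The rise in the Scr libraries lost its call in 8 of 19 alternatives. Those were no filter (adjusted p = 0.0673), reads summed per clone (0.0552), Scr13 treated replicate 2 left out (0.0716), Scr16 untreated replicate 1 or 2 left out (0.0786 and 0.0966), Scr16 treated replicate 1 left out (0.0545) and the clone Scr13 or Scr16 left out (0.169 and 0.283), by limma or, for the sums, edgeR. The estimate of the rise was higher by 0.24 ± 0.11 in log2 in the libraries labelled TRPM2 KO (95% interval 0.0074 to 0.46), and this did not pass in the limma interaction (adjusted p = 0.654).

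CDKN1C (ENSG00000129757; chromosome 11, 2883213 to 2885773, minus strand), which encodes the imprinted inhibitor p57, was near the limit of detection. It had between 0 and 32 reads per library, and its highest value in each group was 1.26 normalized CPM in untreated Scr, 1.21 in untreated TRPM2 KO, 0.950 in treated Scr and 1.09 in treated TRPM2 KO libraries. The 4 groups overlapped with each other. CDK7 and DDX47, genes that most cells use, were also between 0 and 0.948 and between 0.0671 and 1.504 normalized CPM in these tables, so a low value in them is not read as absence of the transcript. Some identifiers in the tables are outside the annotation used here, which holds 95.9% of them. Whether CDKN1C shared reads with, or lost them to, another copy of the gene was not tested, so its level and its share of the family may be understated.

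CDKN2A and CDKN2B, neighbours on chromosome 9 (minus strand), were scarce as well. CDKN2A (ENSG00000147889; 21967753 to 21995301) had between 0.307 and 3.75 normalized CPM in untreated Scr libraries and between 1.17 and 4.43 in untreated libraries labelled TRPM2 KO. With the drug it had 0.713 and 0.568 in Scr13, 0 and 1.17 in Scr16, 0.960 and 3.21 in KO11, and 1.77 and 3.47 in KO28. Scr16 replicate 2 overlapped with KO11 replicate 1. The difference of 1.03 ± 0.34 in log2 (2.05-fold, 95% interval 0.34 to 1.73) did not pass (limma, adjusted p = 0.0600), and the exact permutation p was 0.0571. The log2 scale with 1 added understates a change in so low a gene. CDKN2A passed in 4 of the 12 alternatives that tested it, with DESeq2 (1.91 in log2, adjusted p = 0.0435), with reads summed per clone (1.82, adjusted p = 0.0483, edgeR), with a replicate block (1.03, adjusted p = 0.0345, limma) and without treated replicate 1 of KO11 (1.27, adjusted p = 0.0392, limma). It did not pass in the other 8 of the 12, among them edgeR on single libraries (1.88, adjusted p = 0.0991) and a pseudocount of 0.25 (1.70, adjusted p = 0.0782, limma). Treated libraries at 1 normalized CPM or more were KO11 replicate 2, both of KO28 and Scr16 replicate 2, just enough for the filter. CDKN2A thus met the filter mainly through libraries labelled TRPM2 KO, where it was higher. In the other 7 alternatives, each of which left out 1 or more of those libraries, it was under the filter. The difference was therefore not tested without them. The gene table does not separate p16 from ARF. CDKN2A and CDKN2B overlap CDKN2B-AS1 on the opposite strand, which had at most 4 reads in a library, and the strand setting of the counting is not given in the sources used here.

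CDKN2B (ENSG00000147883; 22002903 to 22009363), which encodes p15, had 0 or 1 read in every Scr library after doxorubicin, 2 reads in all. The treated libraries labelled TRPM2 KO held 12 and 6 reads (KO11) and 10 and 15 reads (KO28). These groups did not overlap, as for 13.2% of the 14572 genes tested in that comparison. The two-sided exact permutation test, which takes libraries of a clone as exchangeable, gave p = 0.0286, the smallest possible. All 4 treated Scr libraries lay under the floor, and the gene was too scarce for the test across all genes. Without treatment it had between 0 and 7 reads in Scr libraries and between 2 and 15 in those labelled TRPM2 KO, and the groups overlapped (exact permutation p = 0.257).

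CDKN2C (ENSG00000123080; chromosome 1, 50960745 to 50974633, plus strand) encodes p18 and was the abundant INK4 member. Of its 3 RefSeq promoter windows, the middle one held 2 matches to E2F (searched as TTCCCGC, also as TTCGCGC, also as TTGCCGC and also as TTGGCGC, on either strand), which 10.9% of all windows hold. No window of the other members with a RefSeq entry held one, and both are printed with the match in capitals (GRCh38.p14, plus strand). All 250 bases of the middle window are untranslated region of some annotated transcript.
CDKN2C, chr1:50968564-50968592: gagagcgggagGCGGGAAtgagggcgcgg
CDKN2C, chr1:50968661-50968689: ggcgcccggccTTCCCGCtcccgcggcgc

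After doxorubicin, CDKN2C was at 77.2 and 104 normalized CPM in Scr13, at 95.3 and 97.6 in Scr16, at 66.5 and 68.6 in KO11 and at 63.6 and 78.5 in KO28. The libraries labelled TRPM2 KO were lower by 0.42 ± 0.098 in log2 (1.34-fold, limma, adjusted p = 0.00673). The groups overlapped at 1 library each, Scr13 replicate 1 and KO28 replicate 2, and the exact permutation p was 0.0571. The call was lost without the clone KO11 (adjusted p = 0.122, limma) or Scr16 (0.0571, limma). Without treatment CDKN2C had 107 and 113 in Scr13, 89.5 and 111 in Scr16, 87.3 and 88.8 in KO11 and 81.6 and 94.2 in KO28, and the difference of -0.25 ± 0.085 did not pass (limma, adjusted p = 0.120). It passed without untreated replicate 1 of Scr16, the lowest Scr library (adjusted p = 0.0293, limma).

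With doxorubicin, CDKN2C fell by 0.34 ± 0.089 in log2 (1.27-fold) in the libraries labelled TRPM2 KO without overlap (limma, adjusted p = 0.00838). The call was lost without the clone KO11 (adjusted p = 0.185, limma). In the Scr libraries the change of -0.17 ± 0.097 did not pass (95% interval -0.37 to 0.035, limma, adjusted p = 0.295). The changes in the genotypes differed by -0.17 ± 0.13 (95% interval -0.45 to 0.099, limma interaction, adjusted p = 0.823).

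CDKN2D (ENSG00000129355; chromosome 19, 10566462 to 10569059, minus strand) encodes p19 and had between 11.8 and 27.9 normalized CPM. Its promoter is shown because it was the INK4 member that passed as higher after doxorubicin, which it did in the libraries labelled TRPM2 KO. The stretch is the 170 bases outside annotated untranslated regions (chr19:10569060-10569229, minus strand, GRCh38.p14, RefSeq), with a CCAAT box and a GC box in capitals.
CDKN2D: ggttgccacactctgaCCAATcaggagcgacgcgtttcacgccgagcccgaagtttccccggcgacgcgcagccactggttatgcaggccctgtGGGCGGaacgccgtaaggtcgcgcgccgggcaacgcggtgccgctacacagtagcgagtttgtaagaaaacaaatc
CDKN2D had 16.3 and 14.97 normalized CPM in untreated Scr13 and 13.3 and 15.4 in untreated Scr16, and 22.6 and 27.9 in Scr13 and 16.9 and 16.7 in Scr16 after doxorubicin. Among libraries labelled TRPM2 KO it had 17.2 and 13.975 in KO11 and 14.9 and 11.8 in KO28 without treatment, and 18.7 and 21.04 (KO11) and 19.8 and 19.2 (KO28) after it. All treated libraries were above all untreated ones of the same genotype. The difference was 1.35-fold in each genotype (log2 differences of 0.43 ± 0.15 in the libraries labelled TRPM2 KO and 0.43 ± 0.17 in the Scr libraries), with adjusted p = 0.0485 and 0.103 (limma), so that it passed in the former alone. That call was lost in 13 of 19 alternatives. Leaving out any of the 8 libraries but untreated replicate 1 of KO11 gave an adjusted p between 0.0592 and 0.118, and edgeR's quasi-likelihood test gave 0.0544. The difference in the Scr libraries passed with DESeq2 (adjusted p = 0.0467) and without treated replicate 1 of Scr16 (0.0473, limma). Between the genotypes CDKN2D differed by -0.056 ± 0.15 without treatment and -0.063 ± 0.16 after doxorubicin (limma, adjusted p = 0.927 and 0.883).

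Of 15 genes listed beside CDKN1A as induced by DNA damage, all 15 rose with doxorubicin in each genotype. With the label TRPM2 KO, 12 were higher after the drug and 5 without it. Their median log2 difference was 0.39 without treatment and 0.60 after doxorubicin, where the median of all tested genes was -0.0073 and 0.014. The untreated count was 8 with DESeq2 and without KO28 replicate 2, 3 with reads summed per clone and without Scr16 replicate 1, 2 without a filter and 1 without the clone Scr16. After doxorubicin MDM2, a ubiquitin ligase, had 324 ± 27.02 normalized CPM in the libraries labelled TRPM2 KO and 196 ± 16.2 in Scr (SD, n = 4 libraries each, limma, adjusted p = 1.66e-06). BTG2, an antiproliferative gene, had 116 ± 6.33 and 65.8 ± 4.58 (adjusted p = 8.05e-07), and RRM2B, a ribonucleotide reductase subunit for repair, had 120 ± 13.7 and 61.1 ± 12.7 (adjusted p = 6.23e-06, both n = 4, limma). ZMAT3, an RNA-binding protein gene, was higher as well, by 0.60 in log2 (limma, adjusted p = 8.48e-06).

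Of the 12 CDKs and cyclins measured, the targets of these inhibitors, 1 was higher in untreated libraries labelled TRPM2 KO and 4 were lower in treated ones, and the median log2 difference was 0.0059 and -0.15. The 4 were the mitotic cyclins CCNB1 (-0.65 in log2) and CCNB2 (-0.54), the S-phase cyclin CCNA2 (-0.29) and their partner CDK1 (-0.28), with limma adjusted p = 0.00144, 9.93e-04, 0.0214 and 0.0450. The count of 4 went to 2 without treated Scr13 replicate 2, Scr16 replicate 2, KO11 replicate 1 or either replicate of KO28, and without any clone but Scr16. CDK6, an INK4 target, was the gene higher without treatment, at 493 ± 72.3 against 362 ± 41.8 normalized CPM (SD, n = 4 libraries each, limma, adjusted p = 0.00557). No CDK or cyclin passed there without a filter or without the clone KO11 or Scr16. With doxorubicin 5 of the 12 fell in the libraries labelled TRPM2 KO and 1 in the Scr libraries, CCNE2, the cyclin partner of CDK2 (0.82 lower in log2, limma, adjusted p = 0.00476). The 5 became 3 without the clone KO11, and the 1 became 0 without either Scr clone. In the limma interaction 0 of the 12 passed, and at most 1 did in an alternative. CCND1, the D-type cyclin that INK4 proteins compete with, was the most abundant, with group means between 2258 and 2345 normalized CPM.

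Of the 8 tested genes for the CDK-activating kinase, the CDC25 phosphatases, the kinases that oppose them and CDKN3, a phosphatase that acts on CDKs, 1 was lower in the treated libraries labelled TRPM2 KO (list median -0.21). It was WEE1, which phosphorylates and restrains CDK1 (-0.36 in log2, limma, adjusted p = 0.00823). The count was 0 without the clone KO11 or KO28, and 2 with DESeq2, without treated replicate 1 of Scr13 or Scr16 and without the clone Scr13. With the drug 5 of the 8, CDKN3 among them (-0.45 in log2, limma, adjusted p = 0.0477), fell in the libraries labelled TRPM2 KO and 1 in the Scr libraries. The 5 became 2 or 3 with any library of KO11 or KO28 left out, and 2 without either clone, without a filter or with reads summed per clone. The 1 became 0 in 9 of 19 alternatives, namely no filter, either Scr clone left out, and any Scr library left out but untreated replicate 1 and treated replicate 2 of Scr13. In the limma interaction 0 of these 8 genes passed. Among 10 pocket proteins and E2F factors, which lie downstream of the CDKs, 3 fell with doxorubicin in each genotype (medians -0.079 in Scr and -0.20 with the label TRPM2 KO, where all tested genes had -0.012 and 0.015). E2F2, an activator of S-phase genes, was lower in the libraries labelled TRPM2 KO after the drug (-0.41, limma, adjusted p = 0.0271), whereas RB1 differed by 0.095 (adjusted p = 0.528, limma). This count of 1 of the 10 stands beside 8.69% of all tested genes. It was 0 without a filter, without treated replicate 2 of KO11, Scr13 or Scr16, and without treated replicate 1 of KO28. It was also 0 with any clone but Scr16 left out, and 2 without treated replicate 1 of Scr16 or that clone. The 3 in the Scr libraries became 0 without a filter or the clone Scr16, and 1 without Scr13.

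The ubiquitin ligases that remove p21, p27 and p57 proteins were measured through 13 genes, with median differences between the genotypes of -0.0082 untreated and 0.031 treated. Without treatment SKP2 was at -0.0082, CKS1B at -0.21 and DTL at -0.18 in log2 between the genotypes (limma, adjusted p = 0.986, 0.235 and 0.253). Among treated libraries, 2 were lower with the label TRPM2 KO, namely CDC20 (-0.49, adjusted p = 0.00802, limma), an activator of the mitotic ligase, and DTL (-0.27, adjusted p = 0.0287), which brings p21 to its ligase on chromatin. The 2 became 1 without treated replicate 2 of Scr16 or KO28 or either of these clones, and 0 without a filter or the clone KO11. SKP2, which recognizes p27, was at -0.27 (limma, adjusted p = 0.0858), and its cofactor CKS1B at -0.33 (adjusted p = 0.0521). With doxorubicin SKP2 fell by 0.29 in the Scr libraries and by 0.55 in those labelled TRPM2 KO (limma, adjusted p = 0.0373 and 1.72e-04).

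Of 17 measured transcription regulators of the inhibitors, 1 was lower in the libraries labelled TRPM2 KO without treatment, beside 4.84% of all tested genes that passed. After doxorubicin 4 were lower and 1, MDM2, higher, beside 8.69% (list medians -0.024 untreated and -0.14 treated). MDM2 was also counted above among the 15 genes induced by DNA damage. FOXO3, an activator of CDKN1B, was lower without and with the drug (-0.29 and -0.45 in log2, limma, adjusted p = 0.0199 and 0.00104). The untreated count was 0 without a filter, with reads summed per clone, without KO11 replicate 2 and without the clone Scr13 or Scr16. It was 2 with DESeq2, a replicate block, Scr16 replicate 1 or KO28 replicate 2 left out, or the clone KO11 or KO28 left out. The treated count of 5 was 2 without the clone KO11. SMAD3, which carries the TGF-beta signal to CDKN2B and CDKN1A, MYCN, the neuroblastoma oncogene, and ETS1, an activator of CDKN2A, were lower after the drug (-0.45, -0.78 and -0.34, adjusted p = 0.00698, 0.00774 and 0.0451, limma). MYC, a repressor of CDKN1A and CDKN2B, fell with doxorubicin by 0.80 in the Scr libraries and by 1.09 in those labelled TRPM2 KO (limma, adjusted p = 0.00415 and 5.72e-07).

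**Figure D4:**
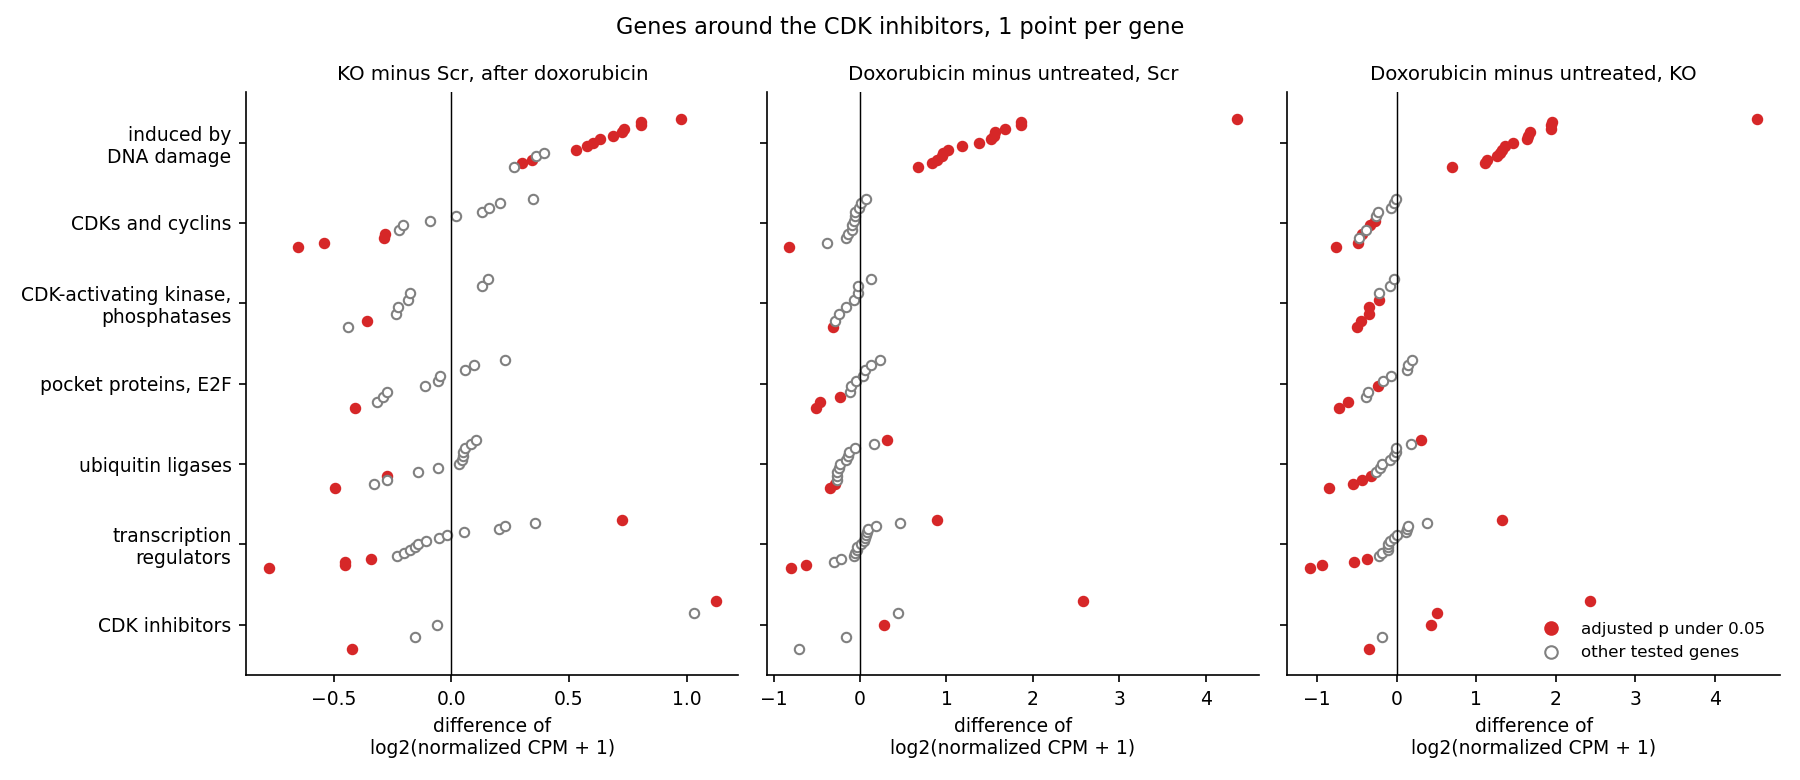
Differences of log2(normalized CPM + 1) (x axes, which differ in range) for the tested genes of 7 lists (y axis), 1 point per gene, in 3 comparisons, with filled points for an adjusted p under 0.05 and KO for the libraries labelled TRPM2 KO. All 15 genes listed as induced by DNA damage are filled and right of 0 in both doxorubicin panels, and 12 are in the panel of the genotypes.

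Some markers of mesenchymal cells or fibroblasts differed with the genotype label. Of 11 in the tables, 6 of 11 tested were higher in the libraries labelled TRPM2 KO without treatment and 6 of 10 tested after doxorubicin. DCN in both counts and LUM in the treated one reached the filter through the libraries labelled TRPM2 KO alone, where they were high, so they had to differ and their calls support nothing. The summed level of the 11 in each library was between 206 and 378 normalized CPM in untreated Scr and between 368 and 498 in untreated libraries labelled TRPM2 KO, and between 185 and 257 and between 377 and 483 after doxorubicin. The remaining tested markers, 5 untreated and 4 treated, did not pass (limma). The untreated 6 became 2 and the treated 6 became 3 without the clone KO28. COL3A1, the most abundant over all libraries, was between 10.8 and 139 in untreated Scr and between 126 and 215 in untreated libraries labelled TRPM2 KO, while in the Scr libraries THY1 had the highest mean, 104 untreated and 81.2 treated. None of the 11 was at or under the floor in all libraries. Their part in the differences of CDKN1A, CDKN1B and CDKN2C between the genotypes was not tested. Within each clone, CDKN1A rose by 2.24 to 2.62 in log2.

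The genes most like CDKN1A over the 16 libraries, by the root mean square difference of centred log2 values, were ACTA2 (0.25), GAS6-AS1 (0.26), DRAXIN (0.29), KITLG (0.37) and SCN4B (0.39), of 15325 genes, where the spread of CDKN1A about its own mean was 1.40. ACTA2, smooth muscle actin, had means of 8.97, 29.2, 54.9 and 113 normalized CPM in untreated Scr, untreated TRPM2 KO, treated Scr and treated TRPM2 KO libraries. The closest to CDKN1B were EPB41L5, TPST1 and TRAK1 (0.10 to 0.12), to CDKN2C they were HNRNPUL2, FAM163A and PODXL2 (0.098 to 0.11), and to CDKN2D ATXN3, ANXA6 and SNAP47 (0.12 to 0.14). This is a description over libraries that share clones and treatment.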

How the data were processed

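Poly(A) RNA libraries were made with a directional kit, and the submitters' processing notes name bcl2fastq, HISAT2 2.1.0, GRCh38, HTSeq and edgeR. The deposited values are a signal per gene, read counts scaled by the authors to an effective library size (normalized CPM). All of them were whole multiples of 1 read (100% of values, within 0.01 of a read), and the recovered reads served the count tests. The deposited tables also hold fold changes and p-values of the authors' own comparisons, which were not used. The value columns without a library numbered 0. The untreated and treated libraries are in separate tables, but the deposited scaling factors (0.974 to 1.03) were within 0.015 in log2 of TMM factors over all 16 libraries, so comparisons across the tables were made.

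Tests took the genes that reached 1 normalized CPM in 4 or more libraries of a comparison and were run with limma 3.58.1 (R 4.3.3) on log2(normalized CPM + 1) with a mean-variance trend, 4 against 4 libraries, or over 16 libraries for the interaction, with Benjamini-Hochberg adjustment at 0.05. A fold change on this scale understates that of low genes. The libraries of 1 clone are not separate clones, so p-values measure the spread between these libraries. Single values were compared with two-sided exact permutation tests (smallest p = 0.0286), which took the libraries of a clone as exchangeable. Alternatives were edgeR 4.0.16, DESeq2 1.42.0, a pseudocount of 0.25, no filter, library size alone, a replicate block, a clone block, reads summed per clone, TMM over 16 libraries, and each library or clone left out. The script was tested on simulated data with independent libraries and no clone effect, which cannot show its error rate for libraries that share a clone. Gene positions and exon lengths are from GENCODE 29, which holds 95.9% of the identifiers, and promoter windows from RefSeq, which matched 6 of the 7 members with 9 windows. Besides the motifs named in the report, the TATA box (TATAAA) and the cell cycle homology region (TTTGAA) were searched on both strands, with 0 matches in the members and matches in 10.7% and 13.3% of all windows.

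The members and gene lists were chosen with earlier results of these data known. Named beside the members were up to 5 genes per list with the smallest adjusted p between the genotypes after doxorubicin, SKP2, CKS1B, DTL, and the 5 (CDKN1A) or 3 closest genes. Neighbours were named from their list and DBH and COL3A1 by abundance. TH, THY1, DCN, LUM, CDKN3, MYC, CDK6, CDK7, CCND1, CCNE2, RB1 and GDF15 are outside it and were picked with their values known. Some results, 1 motif and 1 gene of the naming rule among them, are not reported here.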

Additional observations from a re-analysis of the deposited data

Results flagged for a closer look

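In the untreated Scr libraries, CDKN1C had 1.26 normalized CPM (32 reads) in replicate 1 of Scr13 and between 0.398 and 0.491 (7 or 8 reads) in the other 3 libraries, so that 1 library stood far from the rest of its group. Its gap to the next library was 0.892 of the range of the group, past the 95% critical value of Dixon's test. Of 28 groups checked this was the only one past the limit, and chance alone gives about 1 in 20.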

How the results depend on the processing

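Over 511 repeats of the members' comparisons, 460 kept direction and side of the threshold, 26 lost a call, 7 gained one and 18 turned sign, none of the last with a call. CDKN1A kept all 4 of its calls in all 19 alternatives of each. Counts of genes passing changed as follows, and the cause was not tested. Between the genotypes without treatment, 695 became 368 without a filter and 330 and 327 without the clones Scr13 and Scr16. After doxorubicin, 1266 became 510 and 575 without KO11 and KO28, and 814 to 1314 with single libraries left out (lowest without KO11 replicate 1). For doxorubicin in Scr, 1669 became 857 without a filter, 237 and 781 without Scr13 and Scr16, and 1081 to 1676 with single libraries left out (lowest without treated Scr13 replicate 1). In libraries labelled TRPM2 KO, 2539 became 1613 with reads summed per clone and 995 without KO11. The interaction gave 3 genes, but 31 with DESeq2, 5 without a filter or without Scr13, 1 with summed reads or without KO28, 0 without KO11 or Scr16, and 1 to 4 with single libraries left out.

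The 18 values that turned sign lay between 0.0036 and 0.21 in log2 after turning. CDKN2D between the genotypes without treatment was 0.0036 and 0.050 in log2 without the clones Scr13 and KO28, and -0.14 to 0.031 with single libraries left out. After doxorubicin it was 0.21 without Scr13 and -0.16 to 0.078 with single libraries left out. CDKN2A with doxorubicin in libraries labelled TRPM2 KO was 0.036 without KO11 and -0.44 to 0.044 with single libraries left out. In the interaction CDKN1A was 0.040 without KO28, and CDKN2D was 0.086 and 0.21 without KO11 and Scr13 and -0.10 to 0.13 with single libraries left out.

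Whether replicate numbers pair the libraries was left unsettled. Deviations of same-numbered libraries correlated across genes at -0.025 to 0.086 within clones and -0.011 to 0.085 between genotypes. The replicate block was the replicate number between the genotypes, and clone with replicate number in the doxorubicin comparisons and the interaction. With it, 697, 1365, 2129, 2905 and 22 genes passed in the 5 comparisons. A block of clone alone gave 1774 for doxorubicin in Scr, 2846 in libraries labelled TRPM2 KO and 4 in the interaction. With the replicate block CDKN2A between the genotypes after doxorubicin was 1.03 (limma, adjusted p = 0.0345), the only call among the members that this block changed. CDKN1C and CDKN2B passed the filter in no comparison, so a difference in them was not tested across genes in the main analysis.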

Other observations

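The neighbours of the inhibitors on the chromosome were measured through 15 genes. Of 14 tested between the treated genotypes 1 passed, where 8.69% of all tested genes passed. Of 13 tested with doxorubicin in each genotype, 2 rose and 1 fell (1 in all without the clone Scr13 or KO11). Of all tested genes 11.6% passed there in the Scr libraries and 17.5% in those labelled TRPM2 KO. Beside CDKN1A, SRSF3, a splicing factor, fell with doxorubicin by 0.48 in log2 in the Scr libraries and by 0.44 in those labelled TRPM2 KO (limma, adjusted p = 2.11e-04 and 2.45e-04), while CDKN1A rose. CPNE5, on the same chromosome and counted among the 2 in the libraries labelled TRPM2 KO, was there at 0.724 ± 0.173 normalized CPM untreated and 2.90 ± 0.648 treated (SD, n = 4 libraries each). It reached the filter through the treated libraries alone, so that its call supports nothing, and it was at 1.26 ± 0.583 and 1.30 ± 0.245 in the Scr libraries. The difference in response of CPNE5 did not pass (limma interaction, adjusted p = 0.435). Beside CDKN1B, APOLD1, an endothelial early response gene, rose with doxorubicin in the Scr libraries (0.52, limma, adjusted p = 0.00687) and was lower in the treated libraries labelled TRPM2 KO than in treated Scr (-0.60, adjusted p = 0.00177). MTAP, next to CDKN2A and CDKN2B, had between 51.9 and 58.4 normalized CPM in the 4 group means, and none of its differences passed by limma.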
